A study of Mus musculus with 4 samples.

Results

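Collagens are the main structural proteins of skin. Each molecule is a helix of 3 chains that carry long Gly-X-Y repeats, and the chains are coded by separate Col genes. In dermis, fibroblasts make fibrils of type I and type III collagen, with type V collagen at their core, while type IV networks lie in basement membranes and type VII fibrils tie the epidermal basement membrane to the dermis. The chains were chosen by name alone: every probe set whose only platform gene symbol is Col, a number, a and a number. This gave 82 probe sets of 42 collagen genes, of 45101 probe sets and 18194 genes in all, and each gene is represented by its brightest probe set, by the mean of the 4 arrays.

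RNA of whole back skin of 32-day-old male C57BL6 X DBA2 mice was measured on Affymetrix arrays. Wild type skin (labelled control) had 2 arrays, and skin of K5-IKKbeta transgenic mice had 2. In the transgenic mice keratin K5 regulatory elements drive IKKbeta, a kinase upstream of the transcription factor NF-kB. Keratin K5 is a protein of basal keratinocytes in epidermis and hair follicle, and fibroblasts do not make it. Each array held RNA pooled from 3 mice of its genotype, so errors and p-values measure the spread of pools and not that of mice.

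Expression values are log2 RMA values, on which a difference of 1 is a 2-fold change. A log2 fold change is the K5-IKKbeta mean less the wild type mean, fold changes are 2 to that power with a 95% interval for that gene alone, and adjusted p-values are from limma with Benjamini-Hochberg adjustment over all 13074 genes tested, called at 0.05. Genes were tested where their mean over all arrays was above 6.33 (the 40th percentile over the probe sets), which 30 of the 42 chains were. For 0 of these 30 did a group mean lie below that level, so none was let in by one genotype alone. Array medians lay between 6.91 and 6.96, and Pearson's correlation over all probe sets was 0.994 or more within a genotype and 0.965 to 0.969 between genotypes. Ikbkb, the gene of IKKbeta, measured 9.68 and 9.89 in wild type and 10.38 and 10.20 in K5-IKKbeta skin (log2 fold change 0.50, adjusted p = 0.023 by limma). Levels of different chains cannot be set against each other, since probe sets differ in how well they bind.

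Many collagen chains rose in K5-IKKbeta skin. Of the 30 chains tested, 15 were called higher (50%), where 23.4% of all tested genes rose. None fell by limma at the adjusted threshold, where 10.6% of all tested genes fell, and 0 were lower at an unadjusted p under 0.05. The median log2 fold change was 0.52 over the 30 chains and 0.09 over all tested genes. The rises were from 1.44-fold to 2.62-fold, and 6 were at least 2-fold: Col6a3, Col7a1, Col14a1, Col5a1, Col6a1 and Col6a2. Both K5-IKKbeta arrays lay above both wild type arrays for 21 of 30 chains, against 45.2% of all tested genes, and below them for 4, against 24.3%.

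By class, 3 of 9 tested fibrillar chains, 3 of 7 basement membrane chains, 2 of 6 fibril-associated chains, 2 of 2 anchoring chains and 3 of 3 chains of beaded filaments rose, beside 23.4% of all tested genes. For the fibrillar and fibril-associated chains that is 33.3% each, close to that share. The median log2 fold change was 0.45 for fibrillar, 0.05 for basement membrane, 0.16 for fibril-associated, 0.99 for anchoring and 1.13 for beaded filament chains. The last 2 of the 15 were Col8a1 and Col23a1. The plot of fold changes by class shows that each of the 3 largest classes held both chains that rose and chains close to 0.

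**Figure D1:**
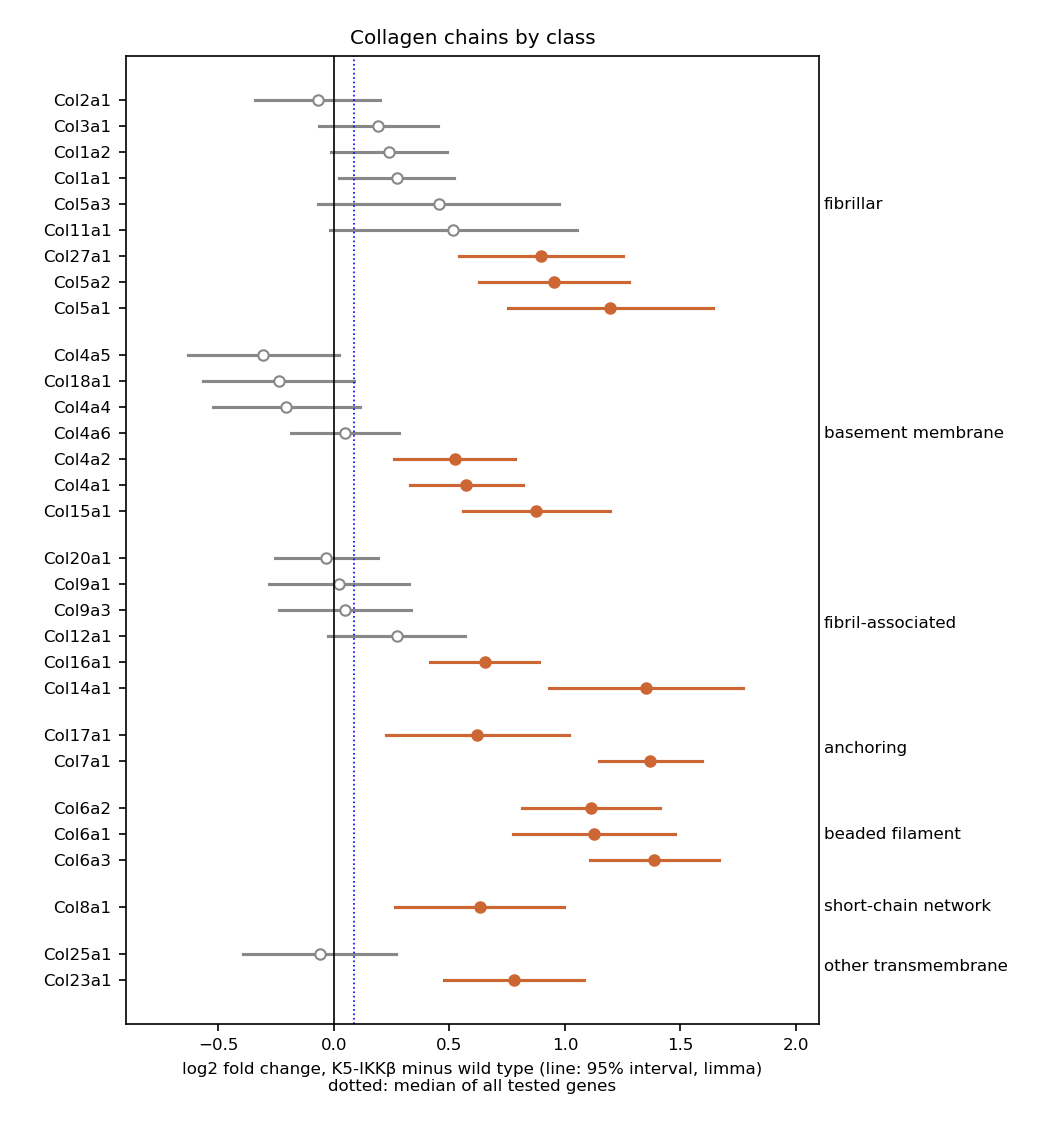
Log2 fold change (K5-IKKbeta minus wild type, x axis) of the 30 tested collagen chains, grouped by class; points are limma estimates from 2 arrays a group, lines their 95% intervals, filled points passed the adjusted p, and the dotted line is the median of all tested genes, 0.09. The 15 filled points lie between 0.52 and 1.39, and the open points between -0.31 and 0.52.

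Among the fibrillar collagens, both main chains of type V rose while those of types I and III did not pass the test. Type V collagen starts and limits the growth of type I fibrils. Col5a1 measured 10.50 and 10.49 in wild type and 11.42 and 11.96 in K5-IKKbeta skin. That is a 2.29-fold rise (95% interval 1.69 to 3.12, adjusted p = 0.0043), with the groups far apart and K5-IKKbeta 2 well above K5-IKKbeta 1. Its partner chain Col5a2 measured 11.99 and 11.89 against 12.73 and 13.05, a 1.93-fold rise (1.54 to 2.42, adjusted p = 0.0031). The rarer type V chain Col5a3 measured 9.62 and 9.46 in wild type and 9.67 and 10.32 in K5-IKKbeta skin. Only the second K5-IKKbeta pool stood clear of wild type there (log2 fold change 0.45, adjusted p = 0.16), and without the first the log2 fold change was 0.78. With the mean of the gene's probe sets, of which the other lay below the filter, it was 0.09 (adjusted p = 0.68).

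Col27a1, a fibrillar chain best known from cartilage, measured 8.21 and 7.83 in wild type and 8.94 and 8.89 in K5-IKKbeta skin. It rose 1.86-fold (1.46 to 2.38, adjusted p = 0.0055), and the groups did not overlap. Col11a1, a chain of type XI collagen, which is related to type V, measured 7.95 and 8.59 against 8.66 and 8.91. The wild type pools differed more than the K5-IKKbeta pools did, and the log2 fold change of 0.52 did not pass (adjusted p = 0.12), though it did without wild type 2 (0.84, adjusted p = 0.028). Col2a1, the main collagen of cartilage, overlapped between genotypes (log2 fold change -0.07, adjusted p = 0.67). Col11a2 and Col24a1 lay below the filter.

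The chains of types I and III, which make the bulk of dermal fibrils, lay slightly above wild type without passing the test. Col1a1 measured 14.28 and 14.20 in wild type and 14.44 and 14.58 in K5-IKKbeta skin, a log2 fold change of 0.27 (95% interval 0.02 to 0.52, adjusted p = 0.090), which passed with limma's trend and robust settings (adjusted p = 0.033). Col1a2 measured 14.32 and 14.17 against 14.45 and 14.52 (0.24, interval -0.01 to 0.49, adjusted p = 0.13). Col3a1 measured 14.43 and 14.35 against 14.50 and 14.67 (0.19, interval -0.07 to 0.45, adjusted p = 0.22). For each of these 3 chains both K5-IKKbeta arrays were above both wild type arrays, by less than the test could call. These values lie at the top of the arrays' range, which ended at 14.51 to 14.53 in wild type and at 14.50 and 14.67 in K5-IKKbeta skin, and on both K5-IKKbeta arrays the highest value of all was that of Col3a1. How far the top of the range held these differences down was not tested.

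Dimmer probe sets of the same genes gave other values. For Col3a1, the next brightest probe set measured 12.20 and 12.22 in wild type and 12.60 and 13.07 in K5-IKKbeta skin, a log2 fold change of 0.62 (limma adjusted p = 0.054 over all 45101 probe sets). With probe sets of shared-sequence endings left out, this probe set stood for Col3a1 and the gene passed (adjusted p = 0.030). For Col1a2, the dimmest probe set measured 7.99 and 8.23 against 8.83 and 8.86 (0.73, adjusted p = 0.010 over all probe sets), while the middle one measured 13.90 and 13.71 against 13.98 and 14.17 (0.27, adjusted p = 0.23). With the mean of its probe sets Col1a2 passed too (0.41, adjusted p = 0.015). For Col1a1, in contrast, the dimmer probe set overlapped between genotypes (10.05 and 9.78 against 9.82 and 9.91, log2 fold change -0.05, adjusted p = 0.86). The mean of the Col1a1 probe sets did not pass (0.11, adjusted p = 0.455). Where each probe set lies in its transcript was not analysed here.

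**Figure D2:**
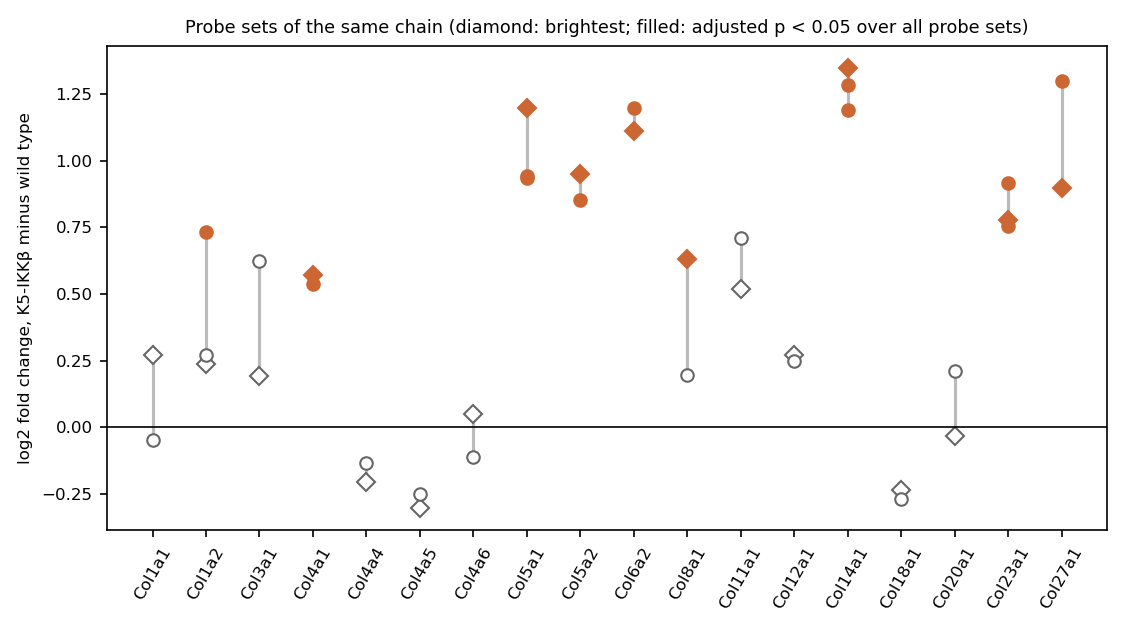
Log2 fold change (y axis) of each probe set with a mean above the filter, for the 18 chains that have more than 1; diamonds mark the brightest probe set of a chain, filled symbols an adjusted p under 0.05 over all probe sets. Probe sets of Col5a1, Col6a2, Col14a1 and Col23a1 lie close together, while those of Col1a2, Col3a1 and Col8a1 lie apart.

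Across all chains that rose, further probe sets mostly showed the same. Of 11 such probe sets above the filter, 10 were called higher and 0 lower, where 10.4% of all probe sets were called higher and 5.88% lower. Those shares include dim probe sets, and over the tested genes, all above the filter, they were 23.4% and 10.6%. The 11 were taken from genes already called higher, so their count is no separate support. Probe sets of 1 gene share their RNA and are no replicates of each other. The exception was a probe set of Col8a1 (0.20, adjusted p = 0.52).

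All 3 tested chains of type VI collagen rose, by similar amounts. Type VI collagen forms beaded microfilaments around cells and between fibrils, and a molecule joins the chains of Col6a1, Col6a2 and Col6a3. Upstream sequences of these 3 genes are shown because the chains rose together; that of Col7a1, which also rose, and of Col1a2, which did not pass, stand beside them. Each run is the 250 bases before the gene's start from RefSeq (GRCm38.p6), 5′ to 3′ on the gene's strand, for Col6a2 before its start farthest upstream. They lie at chr10:76726045-76726294 (minus strand), chr10:76623631-76623880 (minus), chr1:90843972-90844221 (minus), chr9:108953336-108953585 (plus) and chr6:4505368-4505617 (plus). Capitals mark matches, on either strand, to the NF-kB consensus, to GGGCGG (the GC box bound by Sp1), to CCAAT and to TATAAA, none of which overlap each other here.
Col6a1: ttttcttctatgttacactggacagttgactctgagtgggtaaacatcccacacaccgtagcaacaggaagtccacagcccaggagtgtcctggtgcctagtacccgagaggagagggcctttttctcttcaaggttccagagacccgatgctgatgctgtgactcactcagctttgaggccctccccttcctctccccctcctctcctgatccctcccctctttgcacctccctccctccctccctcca
Col6a2: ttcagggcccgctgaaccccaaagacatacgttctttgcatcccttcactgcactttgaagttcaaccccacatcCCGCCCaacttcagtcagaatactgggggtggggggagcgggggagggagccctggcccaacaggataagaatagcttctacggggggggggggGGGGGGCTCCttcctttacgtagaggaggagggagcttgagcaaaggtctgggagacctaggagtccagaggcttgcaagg
Col6a3: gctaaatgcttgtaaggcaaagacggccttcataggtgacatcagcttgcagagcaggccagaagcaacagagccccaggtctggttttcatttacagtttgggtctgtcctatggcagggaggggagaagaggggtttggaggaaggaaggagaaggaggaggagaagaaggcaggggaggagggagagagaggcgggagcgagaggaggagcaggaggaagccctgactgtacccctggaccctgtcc
Col7a1: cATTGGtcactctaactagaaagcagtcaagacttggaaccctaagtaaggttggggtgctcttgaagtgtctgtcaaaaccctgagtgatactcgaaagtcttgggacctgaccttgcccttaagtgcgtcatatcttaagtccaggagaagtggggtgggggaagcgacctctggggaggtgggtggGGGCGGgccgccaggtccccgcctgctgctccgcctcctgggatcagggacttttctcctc
Col1a2: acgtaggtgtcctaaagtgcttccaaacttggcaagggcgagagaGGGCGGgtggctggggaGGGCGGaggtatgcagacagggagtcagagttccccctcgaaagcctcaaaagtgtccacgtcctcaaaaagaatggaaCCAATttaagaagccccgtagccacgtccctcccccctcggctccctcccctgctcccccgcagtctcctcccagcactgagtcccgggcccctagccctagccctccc

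Col6a3 measured 11.71 and 11.61 in wild type and 12.93 and 13.15 in K5-IKKbeta skin. Its 2.62-fold rise (2.15 to 3.18, adjusted p = 0.00049) was the largest of the 15. Col6a1 measured 11.69 and 11.45 against 12.55 and 12.85, a 2.18-fold rise (1.71 to 2.78, adjusted p = 0.0022). Col6a2 measured 11.80 and 11.59 against 12.71 and 12.90, a 2.16-fold rise (1.76 to 2.66, adjusted p = 0.0013). In all 3, wild type 1 lay above wild type 2 and K5-IKKbeta 2 above K5-IKKbeta 1, with the groups well apart. The 3 intervals overlap, and a difference between the chains was not tested. Col6a4 (6.14 and 6.18 against 6.004 and 5.768) and Col6a5 (3.87 and 3.57 against 4.04 and 4.22), further type VI chains, lay below the filter.

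Matches to these motifs are given as a description. In the windows printed above, Col6a2 held 1 match to the NF-kB consensus, from 81 to 72 bases before the start within a run of G, and 1 GGGCGG, Col7a1 held 1 GGGCGG and 1 CCAAT, Col1a2 held 2 GGGCGG and 1 CCAAT, and Col6a1 and Col6a3 held none of the motifs. RefSeq windows of 300 bases (250 before to 50 after a start) were at hand for 33 chains, in 36 windows. The NF-kB consensus was in 19.4% of them and in 8.46% of 32851 windows of all genes, GGGCGG in 61.1% and 35.7%, CCAAT in 36.1% and 37.4%, and TATAAA in 13.9% and 13.6%. Chains whose windows held the NF-kB consensus were Col4a2, Col6a2 and Col27a1, 3 of the 13 chains that rose and had a window, and Col9a1, 1 of the 11 tested chains that did not, besides Col6a4 and Col9a2 below the filter. A match is a description of letters and shows no binding.

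Both anchoring collagens of the dermal-epidermal junction rose. Type VII collagen forms the anchoring fibrils under the basement membrane and is made by keratinocytes and fibroblasts. Col7a1 measured 8.41 and 8.41 in wild type, equal to the last digit deposited, and 9.80 and 9.76 in K5-IKKbeta skin. It rose 2.58-fold (2.21 to 3.02, adjusted p = 0.00023) with hardly any spread between pools, and passed in each of 15 alternatives, also without moderation across genes (adjusted p = 0.036). Without moderation a gene's error comes from its own values alone, so that pass leaned on the equal wild type values. Col17a1, the hemidesmosomal collagen that spans the membrane of basal keratinocytes, rose less firmly. Col17a1 measured 10.97 and 10.90 against 11.79 and 11.33, a 1.54-fold rise (1.17 to 2.02, adjusted p = 0.030), and the first K5-IKKbeta pool stood well above the second. It did not pass when wild type 1 (adjusted p = 0.11) or wild type 2 (0.14) was left out or when the values were quantile-normalized again (0.058). These chains are made by basal keratinocytes. Of 7 tested markers of basal keratinocytes 6 rose and 0 fell, beside 23.4% and 10.6% of all tested genes. The mean level of these markers was 10.93 to 10.97 in wild type and 11.34 to 11.59 in K5-IKKbeta arrays. The part of these cells in the rise was not tested. In bulk skin, more cells of a type and more RNA per cell cannot be told apart.

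**Figure D3:**
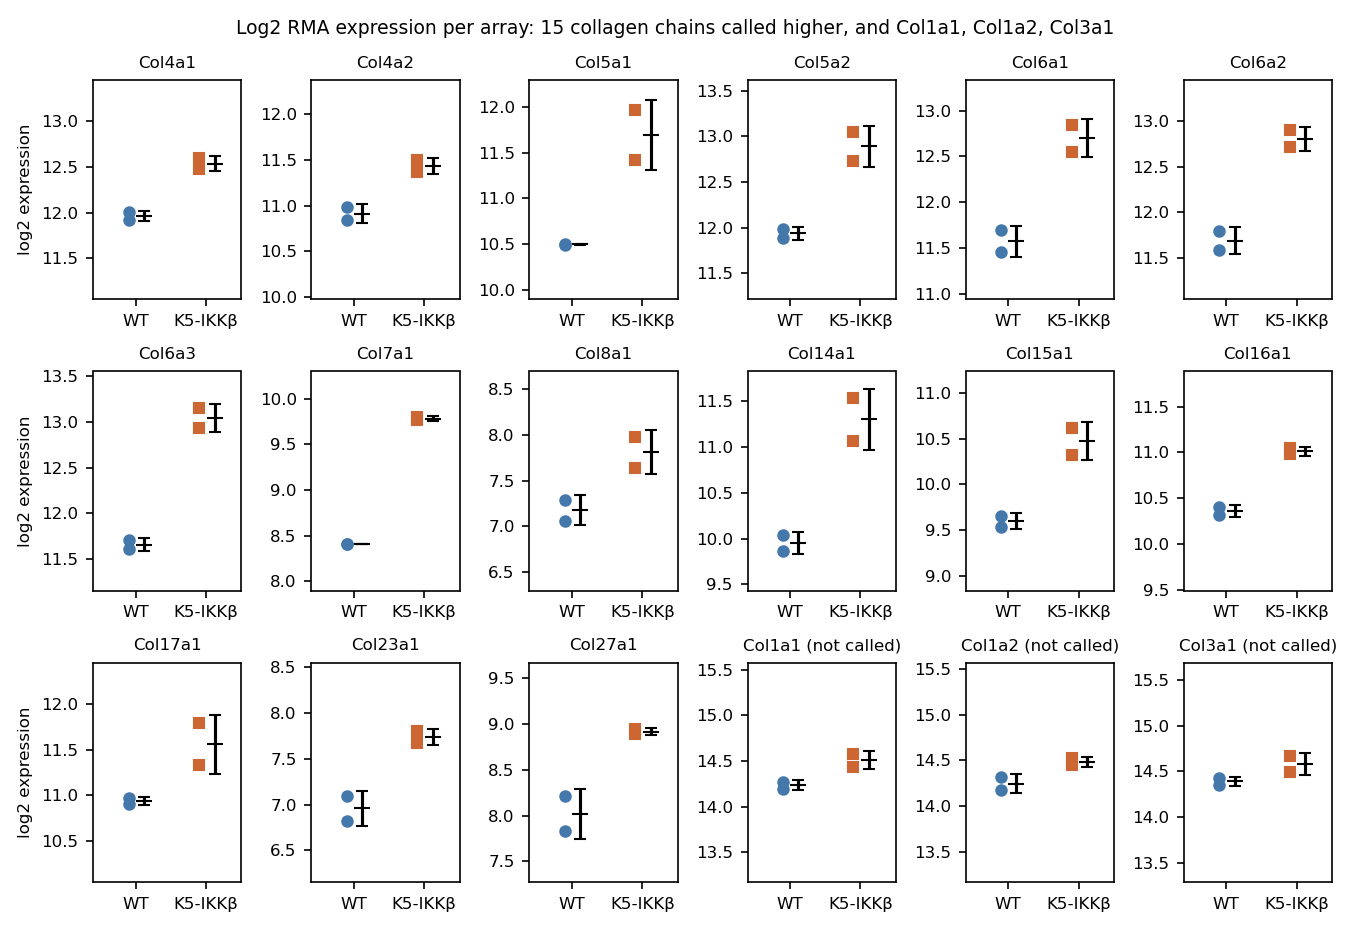
Log2 expression (y axis, each panel spanning the same range) on the 2 wild type arrays (circles) and the 2 K5-IKKbeta arrays (squares) for the 15 chains that rose and for Col1a1, Col1a2 and Col3a1; black marks are the mean ± SD of 2 pools. In every panel both squares lie above both circles, with gaps that are widest for Col7a1 and Col6a3 and narrowest for Col3a1.

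In the basement membrane class, the ubiquitous chains of type IV rose and the other type IV chains did not pass. Col4a1 and Col4a2 combine in the type IV network found in nearly all basement membranes, and in RefSeq they lie head to head on chromosome 8. Col4a1 measured 12.004 and 11.924 in wild type and 12.48 and 12.60 in K5-IKKbeta skin, a 1.49-fold rise (1.26 to 1.76, adjusted p = 0.0072). Col4a2 measured 10.99 and 10.84 against 11.37 and 11.50, a 1.44-fold rise (1.198 to 1.723, adjusted p = 0.013). The pairs of pools kept the same order in both genes, and both calls were lost without wild type 2 (adjusted p = 0.066 and 0.10).

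Col4a5 and Col4a6, the chains of the type IV network of epidermal and some other basement membranes, behaved otherwise. Col4a5 measured 9.13 and 9.38 in wild type and 8.84 and 9.07 in K5-IKKbeta skin, lower without overlap but short of the threshold (log2 fold change -0.31, interval -0.63 to 0.02, adjusted p = 0.13). Its call depended on the setting: it passed as lower when quantile-normalized again (-0.39, adjusted p = 0.045), also with hair genes left out (-0.40, adjusted p = 0.041), and without K5-IKKbeta 2 (-0.42, adjusted p = 0.049). Col4a6 overlapped between genotypes (7.73 and 7.78 against 7.85 and 7.76). Col4a4 measured 7.65 and 7.58 against 7.57 and 7.25 (-0.21, adjusted p = 0.28) and was called lower without K5-IKKbeta 1 (-0.37, adjusted p = 0.0496), and Col4a3 lay below the filter at 5.94 to 6.03.

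The basement membrane collagens with endostatin-like ends parted as well. Col15a1, found at capillaries, muscle and nerve, measured 9.66 and 9.53 in wild type and 10.33 and 10.62 in K5-IKKbeta skin. It rose 1.84-fold (1.47 to 2.29, adjusted p = 0.0040). In the same skin 8 of 10 endothelial, 9 of 10 skeletal muscle and 3 of 5 Schwann cell markers rose, beside 23.4% of all tested genes. The part of these cells in the rise of Col15a1 was not tested. Col18a1, the source of endostatin, measured 10.42 and 10.35 against 9.98 and 10.31, with the first K5-IKKbeta pool lowest (log2 fold change -0.24, adjusted p = 0.22), and it was called lower without K5-IKKbeta 2 (-0.40, adjusted p = 0.033). Its second probe set gave -0.27 (adjusted p = 0.27 over all probe sets).

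Of the fibril-associated collagens, which sit on fibril surfaces, Col14a1 and Col16a1 rose. Col14a1, which regulates fibril width in dermis and tendon, measured 10.04 and 9.87 in wild type and 11.07 and 11.54 in K5-IKKbeta skin. That is a 2.55-fold rise (1.91 to 3.41, adjusted p = 0.0022), and its 2 further probe sets gave log2 fold changes of 1.29 and 1.19, next to 1.35. Col16a1, found near fibrillin microfibrils and the dermal-epidermal junction, measured 10.40 and 10.32 against 10.98 and 11.05, a 1.57-fold rise (1.34 to 1.85, adjusted p = 0.0039). Col12a1, a close relative of Col14a1, measured 8.47 and 8.57 against 8.66 and 8.92 and did not pass (0.27, interval -0.02 to 0.57, adjusted p = 0.14), though it did without K5-IKKbeta 1 (0.40, adjusted p = 0.038). Its interval lies wholly below that of Col14a1, 0.93 to 1.77. That gap is between probe sets of 2 genes, and the difference was not tested. Col9a1, Col9a3 and Col20a1 had log2 fold changes of 0.02, 0.05 and -0.03 (adjusted p = 0.92, 0.78 and 0.82). Type IX collagen belongs to cartilage, and of 8 chondrocyte markers 4 lay below the 25th percentile of every array (Matn1, Cnmd, Hapln1 and Prg4) and 2 were tested. Of these Acan was called higher (6.74 and 7.01 against 7.36 and 7.44, adjusted p = 0.020), and Sox9, at 9.02 to 9.39, was not (adjusted p = 0.22).

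The remaining chains that rose were Col8a1 and Col23a1. Col8a1, a short-chain collagen of networks under endothelia, measured 7.06 and 7.29 in wild type and 7.64 and 7.98 in K5-IKKbeta skin. The 1.55-fold rise (1.202 to 1.997, adjusted p = 0.022) did not hold with the mean of its probe sets (log2 fold change 0.23, adjusted p = 0.18), nor when wild type 1 (adjusted p = 0.13) or wild type 2 (0.054) was left out. Its partner chain Col8a2 went the other way, at 6.22 and 6.45 against 5.68 and 5.20, and lay below the filter. In a fit with no filter it was the only one of the 12 dim chains to be called (log2 fold change -0.90, limma adjusted p = 0.014), where 7.71% of all genes were called lower. Its K5-IKKbeta values lie near the 25th percentile of all probe sets, 5.35 and 5.27 on these arrays. Col23a1, a transmembrane collagen of epithelia, measured 6.82 and 7.09 against 7.68 and 7.80, a 1.72-fold rise (1.39 to 2.12, adjusted p = 0.0053), and its 2 other probe sets gave 0.75 and 0.92. Col25a1, another transmembrane collagen, overlapped (-0.06, adjusted p = 0.76).

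The 12 chains below the filter had single-array values of 3.40 to 6.45 and differences between -0.90 and 0.41. They were Col4a3, Col6a4, Col6a5, Col8a2, Col9a2, Col10a1, Col11a2, Col13a1, Col19a1, Col22a1, Col24a1 and Col26a1. No detection calls were used here, so which of these values lie at background cannot be told.

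Pools of a genotype differed in the collagens in a shared direction. Among the 30 tested chains, K5-IKKbeta 2 lay above K5-IKKbeta 1 in 21 (median difference 0.13) and wild type 1 above wild type 2 in 22 (median difference 0.08). Over all tested genes these shares were 51.2% and 37.1%, with median differences of 0.01 and -0.05. Among the 15 that rose, both counts were 12, and Col17a1, Col7a1 and Col27a1 were the ones higher in K5-IKKbeta 1. Mean levels of the fibroblast, adipocyte and macrophage markers had the same order of pools. For fibroblast markers they were 10.12 and 10.09 in wild type and 10.71 and 10.91 in K5-IKKbeta skin, for adipocyte markers 10.46 and 10.15 against 10.91 and 10.99, and for macrophage markers 8.33 and 8.29 against 9.46 and 9.64. The other marker lists had another order. K5-IKKbeta 1 lay above K5-IKKbeta 2 for skeletal muscle (12.97 and 12.78), endothelial (8.23 and 8.19) and basal keratinocyte markers (11.59 and 11.34). So it did for pericyte and smooth muscle, suprabasal keratinocyte, Schwann cell and chondrocyte markers. Hair and melanocyte markers were higher in K5-IKKbeta 2, but also in wild type 2. With 2 pools a group few orders are possible, and a link of any list to the collagens was not tested.

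Genes that make, fold and crosslink collagen rose in the same skin. Of a list of 34 such genes 26 were tested, and 16 rose and 0 fell, beside 23.4% and 10.6% of all tested genes (1 was lower at an unadjusted p under 0.05 by limma); the median log2 fold change was 0.65. Among them was Loxl1, of the copper enzymes that crosslink collagen and elastin, which rose 2.49-fold (adjusted p = 0.00074), from 8.86 and 8.81 to 10.01 and 10.29. Its relative Loxl3, picked after its value was seen, overlapped between genotypes (log2 fold change -0.02, adjusted p = 0.90). Pcolce2, which helps cleave the carboxyl end of procollagen, rose 1.99-fold (adjusted p = 0.0015), Colgalt1, which adds galactose to hydroxylysine, 1.97-fold (adjusted p = 0.00081), and P3h3, of the prolyl 3-hydroxylase family, 1.85-fold (adjusted p = 0.0018). The collagen chaperone Serpinh1 did not pass (11.62 and 11.65 against 11.95 and 12.74, adjusted p = 0.073), with the second K5-IKKbeta pool far above the first. Plod2, the lysyl hydroxylase of collagen ends, measured 8.44 and 8.35 against 7.85 and 8.14 (-0.40, adjusted p = 0.058); Serpinh1 and Plod2 were picked after their values were seen.

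Most tested genes of a list of collagen-degrading enzymes rose too. The list also holds the peptidases Prep, called lower, and Pepd, called higher. Of 8 tested, 6 rose and 1 fell, beside 23.4% and 10.6% of all tested genes (median log2 fold change 0.67). At an unadjusted p under 0.05, 2 were lower by limma, Prep and Fap. Fap, named after its value was seen, had a log2 fold change of -0.51 (adjusted p = 0.070). Ctsk, the collagen-cleaving cathepsin K, rose 2.33-fold (adjusted p = 0.0013), Mmp14, the membrane-bound collagenase, 2.01-fold (adjusted p = 0.0031), Mmp2, a gelatinase, 1.98-fold (adjusted p = 0.0012), and Mmp3, stromelysin, 1.75-fold (adjusted p = 0.035). The interstitial collagenases Mmp1a, Mmp8 and Mmp13 lay below the filter. The gene that fell was the peptidase Prep (-0.58, adjusted p = 0.0094), picked for its direction after its value was seen. Of 7 tested collagen receptors 2 rose, a share near the 23.4% of all tested genes: Ddr2, the fibrillar collagen receptor of fibroblasts, 1.76-fold (adjusted p = 0.0047), and Cd44 1.38-fold (adjusted p = 0.045), and 0 fell, at an unadjusted p under 0.05 too. The calls of Cd44 and Mmp3 did not hold without wild type 2 (adjusted p = 0.23 and 0.16) or without K5-IKKbeta 2 (0.054 and 0.051), nor when the values were quantile-normalized again (0.10 and 0.060), and that of Cd44 was also lost with no filter (0.060) and with arrays centred (0.058). The epithelial receptor Ddr1, picked after its value was seen, gave 0.01 (adjusted p = 0.95).

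Partners of type IV collagen in the basement membrane rose in 13 of 20 tested genes, and 0 fell, beside 23.4% and 10.6% of all tested genes (1 was lower at an unadjusted p under 0.05 by limma; median log2 fold change 0.72). Frem1, a protein of the epidermal basement membrane, had a wild type mean below the filter (5.78 and 5.94 against 7.40 and 7.67). It was tested only through its K5-IKKbeta values, so no fold is given. Without it 12 of 19 rose, and the median log2 fold change was 0.63. Npnt, nephronectin, rose 2.72-fold (adjusted p = 0.00055), and the laminin chains Lama4 of vessels and Lama2 of muscle and nerve 2.56-fold and 2.53-fold (adjusted p = 0.00024 and 0.00039).

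**Figure D4:**
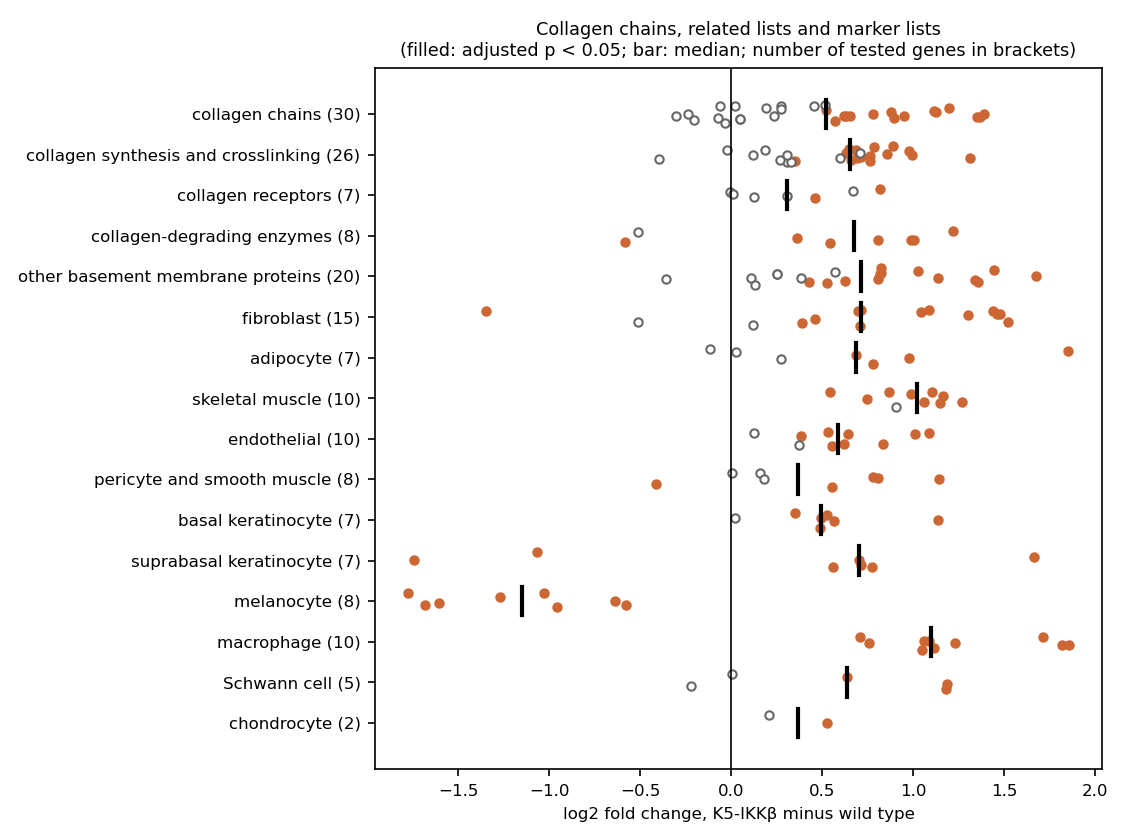
Log2 fold change (x axis) of each tested gene in the collagen chains, the 4 lists of collagen-related genes and 11 cell type marker lists (rows, with the number tested); filled points passed the adjusted p and bars are medians. Collagen chains have a median of 0.52, fibroblast markers 0.71 and melanocyte markers -1.15; the list of hair shaft and inner root sheath genes, with a median of -2.70, is beyond the axis and not drawn.

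Markers of several cell types moved with the collagens. The shares of all tested genes called higher and lower were 23.4% and 10.6%. Of 15 tested fibroblast markers 12 rose and 1 fell (median log2 fold change 0.71), and 2 were lower at an unadjusted p under 0.05 by limma. Of the 15, 0 lay below the 25th percentile on every array. Skeletal muscle markers had a median of 1.02, macrophage markers 1.10, adipocyte markers 0.69, endothelial markers 0.59 and markers of pericytes and smooth muscle 0.37, with 10 of 10 macrophage, 4 of 7 adipocyte and 4 of 8 pericyte and smooth muscle markers called higher; 1 of the last fell. The macrophage marker Aif1 had a wild type mean below the filter (5.39 and 5.79 against 7.25 and 7.58) and was tested only through its K5-IKKbeta values. Without it 9 of 9 were called, and the macrophage median was 1.09. Markers of the suprabasal epidermis were split, with 5 of 7 higher and 2 lower. All 11 hair markers fell, from a mean level of 13.31 to 13.36 in wild type to 9.18 to 9.72 in K5-IKKbeta arrays, as did 8 of 8 melanocyte markers. The part of each cell type in the rise of the collagens was not tested. After a quantile normalization repeated with the hair genes removed, 14 chains were called higher, 1 (Col4a5) was called lower, and the median log2 fold change was 0.43.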

How the data were processed

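The authors deposited log2 RMA expression values (background correction, quantile normalization and a summary per probe set), per the submitters' processing notes, which name RMA without a version. The log base is not given in the sources used here and was taken from the range of the values. The authors' software, genome build and scanner files were not used here. RNA was extracted with Trizol and columns, per the labels' protocols. Each array is a pool of 3 mice, and 2 arrays a group limit the precision; an exact permutation test of 2 against 2 cannot go below p = 0.333.

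Probe sets were named from the platform annotation, with identifiers matched to RefSeq (34754 of 34958 probe sets with 1 symbol, 0 symbols changed). Of 18194 genes, 13074 with a mean above the 40th percentile entered lmFit and eBayes of limma 3.58.1 (R 4.3.3) with genotype as the sole term and two-sided tests. Residual degrees of freedom were 2 and those of the prior 4.00. By limma without adjustment, 5775 genes were under 0.05. The procedure was tested on simulated data.

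Members, classes and lists were chosen with earlier results of these data known, and some genes are in more than 1 list. Named were the chains past the threshold, 8 chains fixed by name (Col1a1, Col1a2, Col3a1, Col4a1, Col4a2, Col6a1, Col7a1, Col17a1), and up to 4 members of each collagen-related list with the largest change. Marker lists are given by counts. Remaining chains are given in brief. Alternatives were other filters, probe set choices, normalizations and moderation settings, limma's treat at 1.2-fold, a block for the replicate number, and each array left out in turn. RefSeq windows were searched on both strands; Col1a1, Col2a1, Col4a3, Col5a2, Col9a3, Col12a1, Col14a1, Col22a1 and Col26a1 were not among them.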

Additional observations from a re-analysis of the deposited data

How the results depend on the processing

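All 15 chains that rose stayed higher in the 15 alternatives, where measured, and 11 of them stayed past the threshold in each one apart from the fit with no moderation across genes; the others were Col4a1, Col4a2, Col8a1 and Col17a1. Chains called higher numbered 11 to 17, apart from 1 (Col7a1) with no moderation, where 80 genes of all were called higher and 54 lower, fibrillar, basement membrane and fibril-associated chains 0 each and anchoring chains 1. No chain was called lower in the main setting, but 1 was with no filter on dim probe sets (Col8a2), 1 with a new quantile normalization, 1 with hair genes left out before it, and 1 with the replicate number as a block (Col4a5 in these 3). Against a 1.2-fold change (treat), 1608 genes were higher and 740 lower, with 1 basement membrane and 1 anchoring chain called. Anchoring chains called were 1 with a new quantile normalization, with hair genes left out and with shared-sequence endings left out, where fibril-associated chains were 1 too; those left out there had only such probe sets. The median log2 fold change of the chains was 0.25 with no filter (42 chains), 0.61 with the mean of all probe sets and 0.43 with hair genes left out.

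With 1 array left out in turn, 1635 to 3049 genes were higher and 662 to 1582 lower. Over the same fits, 12 to 17 collagen chains were higher and 0 to 2 lower, basement membrane chains called were 1 to 5 and anchoring chains 1 to 2, and the median was 0.43 to 0.61. The lone array of a group is then assumed to vary like the others. The fewest basement membrane chains were called without wild type 2 and the most without K5-IKKbeta 2. The latter included Col4a5 and Col18a1, both called lower. The cause was not tested.

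Chains near 0 changed sign without being called. Col4a6 was at -0.031 with the mean of all probe sets, -0.019 with a new quantile normalization and -0.025 with hair genes left out. Col9a1 was at -0.0089 with a new quantile normalization, -0.019 with arrays centred and -0.014 with hair genes left out, and Col20a1 at 0.21 with shared-sequence endings left out. With 1 array left out in turn, Col9a1 ranged from -0.094 to 0.14, Col9a3 from -0.046 to 0.15, Col2a1 from -0.15 to 0.0071, and Col25a1 from -0.19 to 0.066.

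The labels do not say that equal replicate numbers mark shared mice or batches, and with 2 pairs the numbers alone do not pair the samples. Differences between replicate 1 and 2 correlated at 0.25 between genotypes across 13074 genes. With the replicate number as a block, 3088 genes were higher and 1465 lower, and 16 collagen chains were higher (Col11a1 was added, adjusted p = 0.0475) and 1 lower (Col4a5, adjusted p = 0.0485). The call of Cd44 was lost there (adjusted p = 0.051), as was that of Mmp3 (0.085).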
